A study of Mus musculus with 16 samples.

Results

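Interferon-induced GTPases are large intracellular enzymes that cells make in quantity once interferon reaches them. The mouse genes followed here were 10: the guanylate binding protein (GBP) genes Gbp2, Gbp3, Gbp4, Gbp5 and Gbp7 and the immunity-related GTPase (IRG) genes Iigp1, Irgm1, Igtp, Tgtp2 and Gm4841. They were listed by name and matched by symbol to the bulk RNA-seq count table, where all 10 were found among 53465 genes. They were selected on earlier results of these same counts, of a kind that is not stated, so their differences between groups are given below as a description. No p-value is given for a member in a comparison of groups. The numbers of members past a threshold there are printed beside the share of all genes only to describe them, with nothing read from either. Only the relation of members to Ifng within a group is given with p-values.

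The 16 tumors were MC38, a mouse colon adenocarcinoma line, each grown under the skin of another female C57BL/6 mouse of 6 to 8 weeks. Dosing was 200 µg of antibody per mouse on day 16 and again on day 20, with tumors collected on day 21. By random assignment 8 mice received control IgG (replicates 1 to 8) and 8 received an antibody against the checkpoint receptor PD-1 (aPD-1). The study divided the aPD-1 tumors by CD8 T cell staining into 6 non-responders (replicates 9 to 14) and 2 responders (replicates 15 and 16), so the responder groups were set by the tumors themselves and not by assignment. All 3 groups rest on 1 cell line, and each tumor was read from 2 frozen sections of 100 µm that hold cancer cells and host cells together. In such bulk samples more cells of a type and more RNA per cell cannot be told apart.

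Interferon gamma, made mainly by activated T and NK cells, binds the receptor pair Ifngr1 and Ifngr2, which signals through the kinases Jak1 and Jak2. Transcription factors downstream, the interferon regulatory factor Irf1 among them, then switch on the GTPase genes, and type I interferons reach many of the same genes. GBPs assemble on the vacuoles and membranes of intracellular microbes and are linked to inflammasome activation, while IRGs either damage such vacuoles (Iigp1 and Tgtp2) or hold the other IRGs in check on the membranes of the cell itself (Irgm1 and Igtp). In tumors the same genes serve as a readout of interferon exposure.

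In GRCm38 the member genes lie in clusters with their relatives. Gbp2 (chr3:142620602-142638008), Gbp3 (chr3:142560026-142573209), Gbp5 (chr3:142493978-142522344) and Gbp7 (chr3:142530342-142550149) stand together on the plus strand of chromosome 3, and Gbp4 (chr5:105115767-105139586) on the minus strand of chromosome 5. Irgm1 (chr11:48861968-48871683) and Tgtp2 (chr11:49057194-49064206) are on the minus strand of chromosome 11 and Igtp (chr11:58199556-58207591) is on its plus strand. All 10 members are annotated as protein coding. The annotated span of Gbp4 overlaps those of Gbp8 and Gbp9 on the same strand, and that of Igtp overlaps Irgm2. Where a read fits several genes, its division rests on the authors' estimation, which can leave counts that are not whole. Tgtp2 has a near-identical neighbour, Tgtp1: its estimated counts were fractional in 100% of the tumors, against 75% for Gbp7, 6.25% for Gbp4 and 0% for the other 7 members.

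RefSeq promoter windows, of 250 bases before the gene start, were at hand for 7 of the 10 members. Not matched were Gbp4, Iigp1 and Gm4841. The windows were searched on both strands for 2 copies of GAAA with any 2 bases between them, the core of the interferon-stimulated response element that the IRF factors read, and for TTCNNNGAA, the gamma-activated site. The stretches just before the gene start are shown because these letters are where the GTPase genes can be compared with each other and with other promoters. They are written 5′ to 3′ on the strand of the gene, with matches to either motif in capitals, and end at the base before the RefSeq start, which in several genes, such as Gbp5, lies inside the outermost span given above. They are from GRCm38.p6 (Gbp2 chr3:142620553-142620662, Gbp3 chr3:142559934-142560043, Gbp5 chr3:142496764-142496933, Gbp7 chr3:142530226-142530335 and Igtp chr11:58199446-58199555 on the plus strand, Irgm1 chr11:48871421-48871530 and Tgtp2 chr11:49064213-49064322 on the minus strand).
Gbp2: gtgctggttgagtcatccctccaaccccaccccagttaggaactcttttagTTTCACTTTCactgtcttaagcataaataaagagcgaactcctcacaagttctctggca
Gbp3: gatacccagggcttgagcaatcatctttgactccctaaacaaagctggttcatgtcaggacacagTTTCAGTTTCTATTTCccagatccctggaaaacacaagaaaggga
Gbp5: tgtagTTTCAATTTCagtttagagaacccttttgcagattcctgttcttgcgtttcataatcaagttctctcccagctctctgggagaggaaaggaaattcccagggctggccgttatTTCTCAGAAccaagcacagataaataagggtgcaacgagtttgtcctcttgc
Gbp7: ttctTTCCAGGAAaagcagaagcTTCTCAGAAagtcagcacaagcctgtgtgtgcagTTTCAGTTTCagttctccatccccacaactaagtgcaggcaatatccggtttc
Irgm1: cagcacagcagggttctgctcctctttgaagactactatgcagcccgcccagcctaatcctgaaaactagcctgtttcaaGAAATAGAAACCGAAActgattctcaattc
Igtp: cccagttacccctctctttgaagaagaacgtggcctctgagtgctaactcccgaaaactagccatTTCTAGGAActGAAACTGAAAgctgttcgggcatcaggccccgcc
Tgtp2: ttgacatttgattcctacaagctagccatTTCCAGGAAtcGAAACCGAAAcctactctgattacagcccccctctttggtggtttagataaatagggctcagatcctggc

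The GAAA pair, in either orientation, was present in 7 of 7 members, against 3.46% of all 27025 genes with a window. By window it was present in 2.98% of all 32851 promoter windows of this length. The match began 24 to 70 bases before the gene start in Gbp2, Gbp3, Gbp7, Irgm1, Igtp and Tgtp2, and 165 bases before it in Gbp5. Gbp3 and Irgm1 each held 2 overlapping matches, and the other RefSeq start of Gbp3 held none. TTCNNNGAA was present in 4 of 7 members, Gbp5, Gbp7, Igtp and Tgtp2, against 8.13% of all genes with a window and 7.02% of all windows. In Igtp and Tgtp2 it lay directly before the other motif. A further match in Gbp5 lay 245 bases before the start, outside the stretch shown. Both motifs together were found in 0.400% of all genes with a window and 0.332% of all windows. Among related GTPases with a window, 6 of 9 held the GAAA pair and 4 of 9 held TTCNNNGAA. These are matches of letters only, and no binding was measured.

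Library depth was 26603449 to 39948866 counts per tumor, and 18251 genes passed the filter on low counts, the 10 members among them. Mitochondrially encoded genes took 2.52% to 3.25% of the counts in 13 tumors but 7.60% in IgG replicate 1 and 6.00% and 5.73% in non-responders 9 and 14. The 7 T cell markers summed to 7.85 to 29.4 CPM (counts scaled to a library of 1000000) in IgG tumors, 12.6 to 34.0 CPM in non-responders and 221 to 241 CPM in responders. Responders also carried more of the B cell, lymph node stroma and fat cell markers, with all 10 of these genes called higher than in non-responders. The 5 epithelial markers, expected of a colon carcinoma, summed to only 4.43 to 11.9 CPM in the IgG and non-responder tumors and to 50.4 and 116 CPM in the responders. The part of these differences in the results below was not tested.

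The GTPases were well expressed in all 16 tumors. Per kilobase of annotated exon, the median level over the tumors was 180 CPM per kb for Gbp2, 118 for Igtp, 64.3 for Gbp3, 57.3 for Iigp1 and 52.4 for Tgtp2. Irgm1, Gbp7 and Gbp4 followed at 40.5, 39.2 and 34.4 CPM per kb. Gbp5 (9.60 CPM per kb) and Gm4841 (6.49 CPM per kb) were the lowest members.

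**Figure D1:**
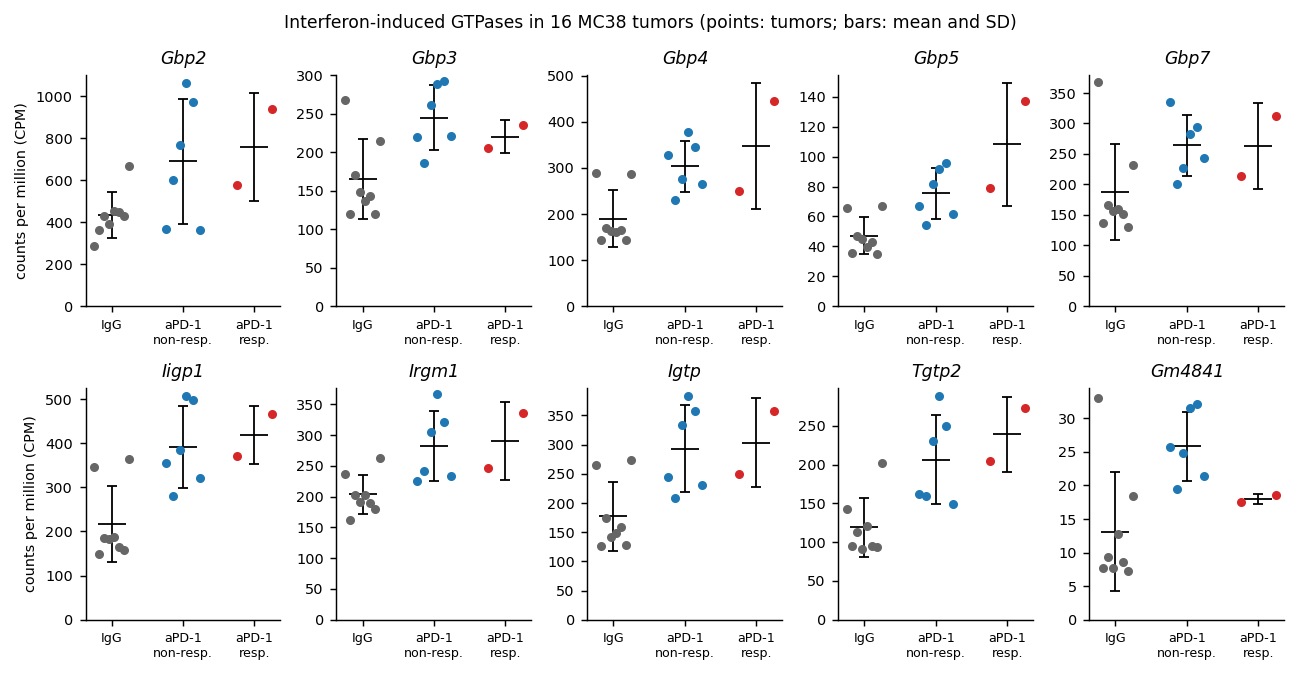
Level of each of the 10 members in CPM (vertical axis, from 0) in 8 IgG tumors, 6 non-responders and 2 responders; points are tumors and bars the mean and SD. Most non-responder points lie above all but 2 of the IgG points, and the responder points mostly lie within the non-responder range.

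The first comparison asked how aPD-1 tumors that did not respond differed from IgG controls. All 10 members had a higher mean in the non-responders, with fitted log2 fold changes of 0.47 to 0.98 and a median of 0.68, where the median over all 18251 genes was -0.01 and 48.7% of genes had a value above 0. Among the GBPs, Gbp2, which coats vacuoles of intracellular microbes, had 287 to 667 CPM in IgG tumors (median 429) and 363 to 1065 CPM in non-responders (median 684). The groups overlapped, with only 2 of 8 IgG tumors below the lowest non-responder. Its log2 fold change was 0.67 ± 0.24 (SE, as for all fold changes here).

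Gbp3 had 120 to 268 CPM in IgG tumors (median 146) and 187 to 292 CPM in non-responders (median 242), a log2 fold change of 0.57 ± 0.17. Gbp4 had 143 to 289 CPM (median 164) and 231 to 379 CPM (median 302), a log2 fold change of 0.68 ± 0.19. Both genes showed the same order, in which the lowest non-responder stood above 6 of 8 IgG tumors and IgG replicates 1 and 8 reached into the non-responder range. Gbp5, the member most often linked to inflammasome assembly, had 34.7 to 67.1 CPM in IgG tumors (median 44.0) and 54.7 to 95.7 CPM in non-responders (median 74.3), a log2 fold change of 0.68 ± 0.18. Gbp7 had 130 to 367 CPM (median 158) and 201 to 336 CPM (median 263), a log2 fold change of 0.49 ± 0.21. Its highest tumor of all 16 was an IgG control, replicate 1.

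Among the IRGs that attack vacuoles, Iigp1 had 148 to 364 CPM in IgG tumors (median 184) and 281 to 507 CPM in non-responders (median 371), a log2 fold change of 0.85 ± 0.22. Tgtp2 had 91.3 to 203 CPM (median 104) and 149 to 289 CPM (median 197), a log2 fold change of 0.79 ± 0.20, and here 7 of 8 IgG tumors lay below the lowest non-responder. Because reads of Tgtp1 and Tgtp2 may be split either way, their sum was taken too. It was 118 to 285 CPM in IgG tumors and 201 to 441 CPM in non-responders, and Tgtp2 took 69.6% to 77.6% of it in the former and 62.9% to 74.1% in the latter.

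Among the regulatory IRGs, Irgm1 had 162 to 262 CPM in IgG tumors (median 197) and 225 to 367 CPM in non-responders (median 274), a log2 fold change of 0.47 ± 0.13. Igtp had 126 to 273 CPM (median 154) and 209 to 384 CPM (median 289), a log2 fold change of 0.73 ± 0.21. Irgm1 was thus the member with the smallest fitted difference and also the smallest SE. Gm4841, an IRG gene that like Iigp1 lies on chromosome 18, had the largest at 0.98 ± 0.31, from 7.31 to 33.1 CPM in IgG tumors (median 8.96) to 19.4 to 32.2 CPM in non-responders (median 25.2).

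**Figure D2:**
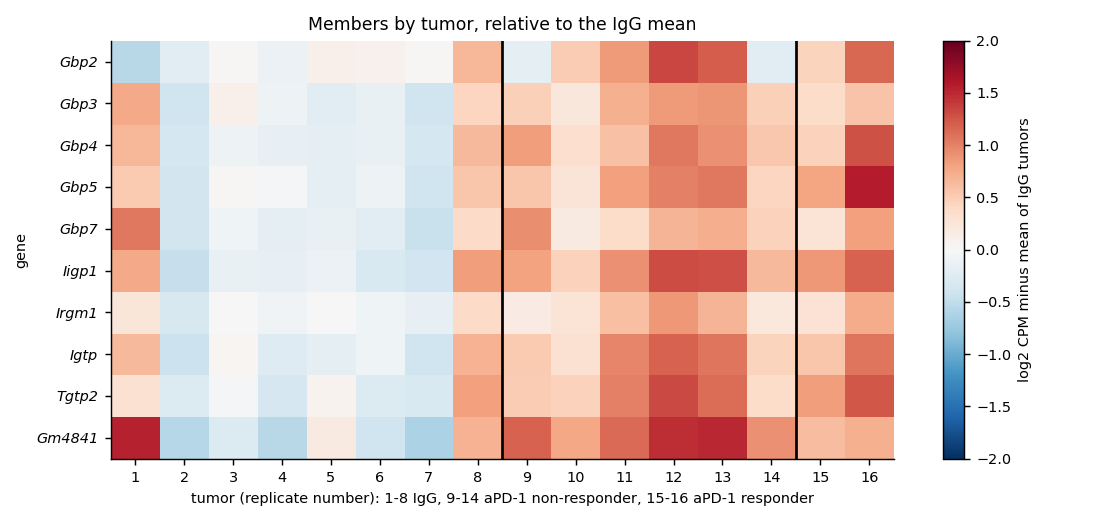
Log2 CPM of each member (rows) in each tumor (columns, by replicate number) minus the mean of the 8 IgG tumors, from blue (lower) to red (higher). IgG tumors 1 and 8 are red for most members, and Gbp2 is blue in tumors 1, 2, 4, 9 and 14, most so in tumor 1.

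No member was called in this comparison by edgeR's quasi-likelihood test, where 0% of the 18251 genes were called in either direction. Calling a gene took both a log2 fold change above 1 in size and an adjusted p under 0.05. At an unadjusted p below 0.05 were 10 of 10 members and 3.8% of all genes, and DESeq2 called 0 members and 4 genes. The lowest non-responder stood above 6 or more of the 8 IgG tumors for 9 of 10 members and for 1.76% of all genes. For no member did every non-responder stand above every IgG tumor, a pattern of 0.0164% of all genes. Since the members were listed with such values known, these shares say nothing further about them. The IgG tumors that overlapped the non-responders were replicates 1 and 8 for 7 of 10 members, replicate 8 alone for Tgtp2, replicate 1 alone for Gm4841 and all but 2 of the tumors for Gbp2. Replicates 1 and 8 also had the 2 highest sums of the IgG group for T cell markers (17.3 and 29.4 CPM, median 12.1), neutrophil markers (12.3 and 8.42 CPM, median 6.22) and fibroblast markers (2308 and 2037 CPM, median 1835). They did so for no other marker list. Replicate 1 was the lowest IgG tumor for macrophage and monocyte (937 CPM, median 1254), endothelial (51.0 CPM, median 82.2), B cell (0.988 CPM, median 1.57) and skeletal muscle markers (0.19 CPM, median 6.35). Replicate 8 was the highest for macrophage and monocyte (1348 CPM) and epithelial markers (10.1 CPM). The highest mitochondrial share was that of replicate 1. Without IgG replicate 1, 1 member, Gm4841, was called (log2 fold change 1.34), as were 0.011% of all genes. Without the 3 tumors of high mitochondrial share the members' values were 0.64 to 1.40 and 0 were called.

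Taking all 8 aPD-1 tumors against the 8 IgG controls, the comparison that was randomized, gave log2 fold changes of 0.48 (Irgm1, SE 0.12) to 0.88 (Iigp1, SE 0.20), with a median of 0.73. No member was called, as was 0% of all genes, with 10 of 10 members and 13.5% of all genes at an unadjusted p below 0.05. DESeq2 put 6 members below an adjusted p of 0.05, all with a log2 fold change under 1, where it put 0.663% of all genes below that threshold with a higher level. These counts rest on the values that chose the members, and nothing is read from them.

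**Figure D3:**
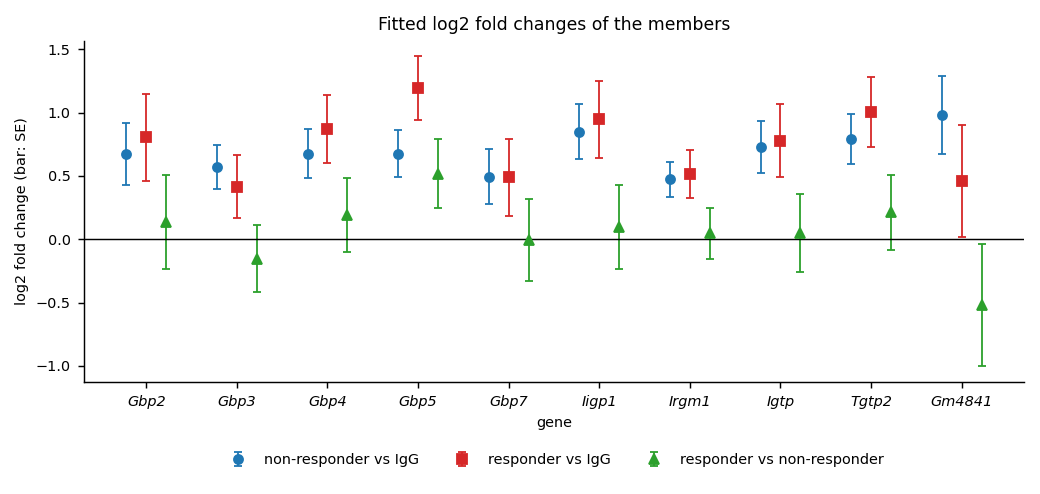
Fitted log2 fold change (vertical axis) with its SE (bar) for each member in the comparisons of non-responders with IgG (circles), responders with IgG (squares) and responders with non-responders (triangles). Circles and squares all lie above 0, and triangles lie between -0.52 and 0.52.

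Responders were next compared with non-responders, the groups that CD8 T cell staining had set apart. The members showed no common direction, with log2 fold changes from -0.52 to 0.52 and a median of 0.07. Above 0 were 7 of 10 values, against 51.7% of all genes. No member was called, against 12.5% of all genes called higher and 0.663% called lower, and 0 members were at an unadjusted p below 0.05, against 31.2% of all genes. For no member did both responders stand above every non-responder, a pattern of 21.5% of all genes. DESeq2 called 0 as well.

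The responders had 577 and 940 CPM of Gbp2, 205 and 236 CPM of Gbp3, and 213 and 313 CPM of Gbp7. For Iigp1 the values were 372 and 466 CPM, for Irgm1 246 and 336 CPM, for Igtp 249 and 358 CPM, and for Tgtp2 205 and 274 CPM. Both responders therefore lay within the range of the 6 non-responders for 7 of 10 members, a pattern of 36.4% of all genes. The 3 others differed from one another. Responder 16 stood above every non-responder in Gbp4 (251 and 445 CPM, log2 fold change 0.19 ± 0.29) and in Gbp5 (79.1 and 137 CPM, 0.52 ± 0.27). Both responders stood below every non-responder in Gm4841 (17.5 and 18.5 CPM, -0.52 ± 0.48), a pattern of 13.2% of all genes. Responder 16 was above responder 15 for 10 of 10 members. No share of all genes is given for that order, and members that vary together are not separate observations. The values of this small group depend on responder 16. Without responder 16 the values ran from -0.62 to 0.02, and without responder 15 from -0.55 to 0.79.

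Against IgG controls the responders were higher in 10 of 10 members, with log2 fold changes of 0.42 to 1.19 and a median of 0.79, where the median over all genes was -0.02 and 48.4% of genes had a value above 0. Gbp5 (1.19 ± 0.25) and Tgtp2 (1.00 ± 0.28) were called, against 14.3% of all genes called higher and 0.641% called lower. Nothing is read from that count, since the members were chosen on such values. Gbp4 (0.87 ± 0.27) and Iigp1 (0.95 ± 0.30) followed, and Gm4841 (0.46 ± 0.44) and Gbp3 (0.42 ± 0.25) came last. Both responders stood above all 8 IgG tumors in Gbp5, Iigp1 and Tgtp2, 3 of 10 members, as they did for 19.3% of all genes. Without responder 16 no member was called and the values were 0.13 to 0.72. Tgtp2 sat at the threshold of 1, and 1 member was called without IgG replicate 2, 4, 6 or 7. Without responder 15 the members called were Gbp4 and Gbp5, and Tgtp2 was not. The comparisons of non-responders and of responders with IgG share the same controls, so the likeness of their values for one gene is not independent.

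The 22 related interferon-inducible GTPases in the table, which were not members, were taken by family, with adjusted p-values from edgeR's quasi-likelihood test over all 18251 genes. Against non-responders, 2 of 22 were called higher in the responders, close to the 12.5% of all genes, and 4 of 22 had an adjusted p below 0.05, against 15.4% of all genes with a higher level. Without non-responder 13 the number called was 4. Of the 4 with an adjusted p below 0.05 over all tumors, all but 9930111J21Rik2 belonged to the very large inducible GTPases, whose genes cluster on chromosome 7. Gm8995, annotated as a pseudogene of that cluster, had 41.3 to 68.1 CPM in IgG tumors, 46.4 to 76.7 CPM in non-responders and 242 and 254 CPM in responders. Relative to non-responders the log2 fold change was 2.0 ± 0.18 (adjusted p = 5.41e-07). Gm1966, a further pseudogene, had 3.61 to 22.2 CPM, 10.3 to 25.7 CPM and 107 and 102 CPM in the same order, with a log2 fold change of 2.67 ± 0.40 (adjusted p = 0.00013). For both genes the responders were set apart from all 14 other tumors. Estimated counts of Gm8995 were fractional in 43.8% of tumors, so part of its reads could belong to its near copies.

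Gvin1, the best known very large GTPase, had 293 and 316 CPM in responders against 115 to 230 CPM in non-responders, a log2 fold change of 0.90 ± 0.26 (adjusted p = 0.0226). 9930111J21Rik2, an IRG of tandem type, had 155 and 136 CPM against 66.4 to 119 CPM, a log2 fold change of 0.68 ± 0.17 (adjusted p = 0.00949). Neither reached a log2 fold change of 1, and the call of Gvin1 at 0.05 was lost without either responder (adjusted p = 0.14 and 0.191), without non-responder 10 (adjusted p = 0.059) or without the tumors of high mitochondrial share (adjusted p = 0.083), and that of 9930111J21Rik2 without responder 15 (adjusted p = 0.272). The 6 other GBPs had log2 fold changes of 0.00 to 0.60 with 0 below an adjusted p of 0.05, and Mx1 and Mx2, dynamin-like antiviral GTPases induced by type I interferon, had -0.18 ± 0.44 and -0.10 ± 0.34.

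Against IgG controls, 9 of 22 related GTPases were called higher in responders and 11 had an adjusted p below 0.05, against 14.3% and 17.7% of all genes. At an unadjusted p below 0.05 were 13 of 22, against 33.3% of all genes. In the very large family 4 of 5 were called, led by Gm8995 (2.31 ± 0.16, adjusted p = 2.78e-08) and Gm1966 (2.83 ± 0.37, adjusted p = 2.46e-05), with Gvin1 (1.57 ± 0.24) and Gm4070 (1.43 ± 0.27) behind them. Of the other IRGs 3 of 9 were called, Tgtp1 (1.58 ± 0.40, adjusted p = 0.00805), Gm12185 (1.18 ± 0.32, adjusted p = 0.0114) and Gm5431. Of the other GBPs 2 of 6 were called, Gbp10 (1.51 ± 0.45, adjusted p = 0.0212) and Gbp2b (1.99 ± 0.66, adjusted p = 0.0379). Neither Mx gene was. Without responder 16 only the 4 very large GTPases stayed called, and Tgtp1 then had an adjusted p of 0.137, Gbp10 of 0.442 and Gbp2b of 0.111. Gbp2b did not pass without responder 15 either (adjusted p = 0.294), without IgG replicate 2, 4, 5 or 7, without the 3 tumors of high mitochondrial share (adjusted p = 0.0552), without the low-count filter (adjusted p = 0.0718) or with only 2 groups fitted (adjusted p = 0.0676). Gm12185 (adjusted p = 0.061) and Gm5431 (adjusted p = 0.204) were lost without responder 15, and Gbp10 (adjusted p = 0.0526) and Gm5431 (adjusted p = 0.0531) without the low-count filter. Gm5431 was also lost without IgG replicate 2, 5 or 7. The 4 relatives tested that are not known to be induced by interferon, the atlastins Atl1, Atl2 and Atl3 and Irgq, were not called in any comparison.

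**Figure D4:**
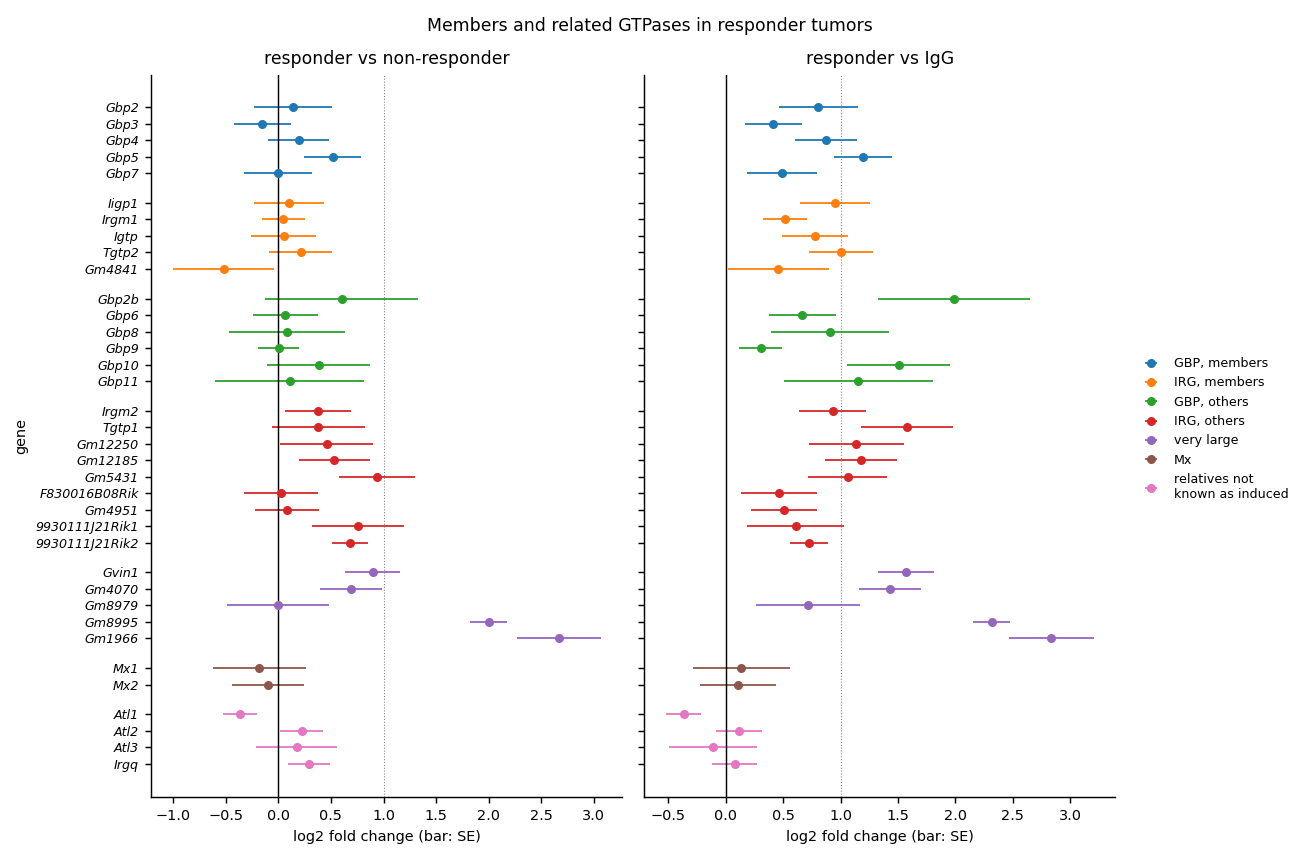
Fitted log2 fold change (horizontal axis) with its SE (bar) for members, related GTPases by family (colours) and relatives not known as induced, for responders against non-responders (left) and against IgG (right). The dotted line marks a log2 fold change of 1; Gm8995 and Gm1966 stand at 2.0 and 2.67 in the left panel, while the members scatter about 0.

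Against IgG, non-responders had higher fitted levels of 21 of 22 related GTPases, where 48.7% of all genes had a value above 0. Their median log2 fold change was 0.58, but none was called and none had an adjusted p below 0.05, as was 0% of all genes. At an unadjusted p below 0.05 were 14 of 22, against 3.8% of all genes, and DESeq2 called 0. Gbp10 (1.12 ± 0.33), Tgtp1 (1.20 ± 0.30) and Gbp2b (1.39 ± 0.50) had the largest values. For 8 of 22 the lowest non-responder stood above 6 or more of the IgG tumors, a pattern of 1.76% of all genes.

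Of the 40 interferon signalling genes in the table, 23 were expressed enough to test. Of the 19 ligands these were Ifng and Ifnb1. Ifng, which encodes interferon gamma, had 0.36 to 1.97 CPM in IgG tumors (12 to 71 counts), 0.73 to 3.37 CPM in non-responders (24 to 133 counts), and 2.01 and 7.40 CPM in responders. The highest IgG values were again those of replicates 8 (1.97 CPM) and 1 (1.63 CPM), and responder 15 lay within the non-responder range. Its log2 fold change was 2.44 ± 0.55 for responders against IgG (adjusted p = 0.00335), 1.23 ± 0.60 for responders against non-responders (adjusted p = 0.173) and 1.21 ± 0.43 for non-responders against IgG (adjusted p = 0.987). The first of these was lost without responder 16 (log2 fold change 1.15, adjusted p = 0.308).

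In responders against non-responders 2 of 23 signalling genes were called higher, against 12.5% of all genes: Ciita, the switch of MHC class II genes (2.71 ± 0.36, adjusted p = 3.7e-05), and Irf8, a factor of myeloid and B cells (1.37 ± 0.24, adjusted p = 0.000552). Jak1 had the third smallest p (0.92 ± 0.25, adjusted p = 0.0148). Without responder 15, Irf8 had an adjusted p of 0.0813 and Jak1 of 0.287, which left 1 gene called. Against IgG, 3 of 23 were called, where 14.3% of all genes were, Ciita (3.27 ± 0.33, adjusted p = 1.36e-06), Irf8 (1.89 ± 0.22, adjusted p = 7.3e-06) and Ifng, and without IgG replicate 1 the number was 6 and without the 3 tumors of high mitochondrial share 7. Both Ciita and Irf8 are made by B cells. The 4 B cell markers summed to 213 and 790 CPM in the responders and to at most 5.13 CPM elsewhere. The 8 macrophage and monocyte markers summed to 1488 and 1584 CPM in responders, 1098 to 1583 CPM in non-responders and 937 to 1348 CPM in IgG tumors. The part of either cell type in the values of Ciita and Irf8 was not tested. Irf1 had 0.16 ± 0.20 against IgG (adjusted p = 0.627) and -0.22 ± 0.21 against non-responders (adjusted p = 0.535).

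In non-responders against IgG none of the 23 signalling genes was called, as was 0% of all genes, with 7 of 23 at an unadjusted p below 0.05, against 3.8% of all genes. Irf8 (0.53 ± 0.17), Batf2 (0.95 ± 0.32) and Ifng had the smallest p, each with an adjusted p of 0.987, and Irf1 had 0.39 ± 0.14. Without IgG replicate 1, Irf1 reached an adjusted p of 0.031 with a log2 fold change of 0.53. In all 8 aPD-1 tumors against IgG none was called, and Irf8 (1.01 ± 0.27), Ifng (1.62 ± 0.45) and Ciita (1.82 ± 0.52) had adjusted p-values of 0.152, 0.152 and 0.156. DESeq2 called Ifng and Ciita there.

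The 25 partners of the GTPases were autophagy proteins that place them, enzymes that attach their lipid anchor, and inflammasome proteins. In responders against IgG 1 of 25 was called, where 14.3% of all genes were called higher. Against non-responders 0 were, where 12.5% of all genes were called higher, and 0 in the other comparisons, where 0% of all genes were. The partner called was Il18, an inflammasome cytokine. It had 1.52 ± 0.16 CPM (SD, n = 8) in IgG tumors, 1.86 ± 0.40 CPM (SD, n = 6) in non-responders, and 3.90 and 2.78 CPM in responders. Its log2 fold change was 1.13 ± 0.22 against IgG (adjusted p = 0.0012) and 0.85 ± 0.24 against non-responders (adjusted p = 0.0173), and neither passed without responder 15 (adjusted p = 0.149 and 0.487), nor the latter without non-responder 10 (adjusted p = 0.0574), without the low-count filter (adjusted p = 0.0793) or with only 2 groups fitted (adjusted p = 0.0913). The DNA sensor Aim2 passed against IgG only (0.49 ± 0.14, adjusted p = 0.0169), and not without responder 15 (adjusted p = 0.646) or the low-count filter (adjusted p = 0.0813). Trim21 had 0.31 ± 0.12 against IgG (adjusted p = 0.0688), and Sqstm1 -0.56 ± 0.22 against non-responders (adjusted p = 0.0963). Sqstm1 passed with DESeq2 (adjusted p = 0.0477), without non-responder 9 (log2 fold change -0.67, adjusted p = 0.0112) and without the 3 tumors of high mitochondrial share (-0.80, adjusted p = 0.000426). In non-responders against IgG the smallest p belonged to Casp1 (0.24 ± 0.11), Trim21 (0.15 ± 0.08) and Il18 (0.29 ± 0.16), each with an adjusted p of 0.987. In all aPD-1 tumors against IgG it belonged to Il18 (0.55 ± 0.20, adjusted p = 0.244), Trim21 (0.19 ± 0.08) and Aim2 (0.23 ± 0.11).

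Within groups the members rose and fell together from tumor to tumor. After each gene's log2 CPM was centred on its group mean, the correlation over the 16 tumors had a median of 0.84 across the 45 pairs of members, with 35 pairs above 0.7. Igtp followed the mean of the members most closely (r = 0.99) and Gbp2 least (r = 0.51), and all 5 pairs below 0.5 included Gbp2, down to -0.04 with Gbp7. For the related GTPases r with that mean ran from -0.08 (9930111J21Rik1) to 0.97 (Gbp10). It was 0.64 for Gm8995 and -0.05 for Gm1966, the 2 called higher in responders than in non-responders. These points share libraries and depth, and the values are descriptive, with no share of other gene pairs given. IgG replicates 1 and 8 were the 2 highest IgG tumors for 9 of 10 members, and their part in these correlations was not tested. In the non-responders, tumors 12 or 13 held the highest value for 9 of 10 members and tumor 10 the lowest for 7. No share of all genes is given for this order either.

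Gbp2 stood apart in IgG replicate 1, the tumor of highest mitochondrial share. It was the lowest of all 8 IgG tumors in replicate 1, where the other 9 members each ranked among the 2 highest, and among the 6 non-responders it was lowest in tumor 14 and next lowest in tumor 9. In the non-responders other members ranked likewise, with Irgm1 lowest in tumor 9 and next lowest in 14, and Tgtp2 lowest in 14. The related genes Gm12250, 9930111J21Rik1 and Gm1966 were likewise lowest of the IgG group in replicate 1. Without these 3 tumors the log2 fold change of Gbp2 in non-responders against IgG was 0.91, and in responders against non-responders it turned from 0.14 to -0.22. The part of RNA quality in this was not tested.

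The genes outside all the lists whose centred level was most like the mean of the members over the 16 tumors were Il18bp (r = 0.94), a secreted trap for interleukin 18, Ubd (r = 0.89), a ubiquitin-like modifier, Ly6a (r = 0.88), the surface antigen Sca-1, Nkg7 (r = 0.87), a granule protein of cytotoxic lymphocytes, and Sytl3 (r = 0.86), a vesicle trafficking protein. Il18bp, Ubd and Ly6a had log2 fold changes of 0.61 ± 0.20, 0.96 ± 0.22 and 0.71 ± 0.15 in non-responders against IgG. Nkg7 and Sytl3 had 0.66 ± 0.32 and 0.72 ± 0.34 there, but 1.89 ± 0.44 and 1.86 ± 0.46 in responders against non-responders, where Ly6a had 0.12 ± 0.23. Mean levels of Sytl3 were only 0.37 CPM in IgG tumors and 0.60 CPM in non-responders, where counting error adds to the spread. Those of Nkg7 were 3.38 and 5.34 CPM.

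**Figure D5:**
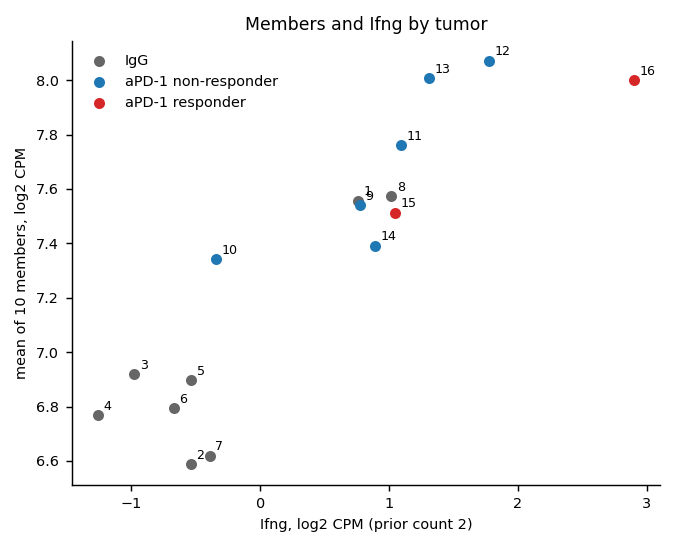
Mean log2 CPM of the 10 members (vertical axis) against log2 CPM of Ifng (horizontal axis, prior count of 2), with each tumor labelled by its replicate number. IgG tumors 1 and 8 lie among the aPD-1 tumors, and responder 16 lies farthest right at a member mean near that of non-responders 12 and 13.

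The relation of each member to Ifng was tested within the IgG and the non-responder group, 20 relations in all, with exact two-sided permutation tests and Benjamini-Hochberg adjustment. No share of all genes related to Ifng in this way is given, so the counts do not set the members apart from other genes. In the 6 non-responders Pearson's r was 0.48 (Gbp2) to 0.92 (Gbp3), and 5 of 10 members had an adjusted p below 0.05, Gbp3, Iigp1 and Igtp (adjusted p = 0.0278 by the exact test), Gbp5 (adjusted p = 0.0397 by the exact test) and Gm4841 (adjusted p = 0.0463 by the exact test). Spearman's rho was 0.31 to 0.94 with 0 of 10 below an adjusted p of 0.05 (lowest 0.111 by the exact test), 3 members reaching 0.0167 unadjusted. Without the 2 tumors farthest from the median of Ifng, 10 and 12, r ran from -0.23 (Gbp7) to 0.98 (Gbp3) over 4 tumors. Without non-responder 10, 11, 12 or 13 none passed, where the smallest p that 5 tumors allow is 0.00833.

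In the 8 IgG tumors r was 0.19 (Gbp2) to 0.86 (Iigp1), and 1 member, Tgtp2, had an adjusted p below 0.05 (adjusted p = 0.0397 by the exact test). Spearman's rho was 0.17 to 0.67 with an adjusted p of at least 0.206 by the exact test. The relation rested on replicates 1 and 8, since r without them was -0.85 to 0.21 over the other 6 tumors, and Tgtp2 did not pass without replicate 1, 4, 5 or 8. Responders, with 2 tumors, could not be tested.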

How the data were processed

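Bulk RNA-seq was made from 16 MC38 tumors (8 IgG, 6 aPD-1 non-responders, 2 aPD-1 responders). Per the labels and the study's methods, the authors built stranded poly(A) libraries, aligned reads to GRCm38 with STAR 2.6 and deposited expected counts per gene estimated with RSEM 1.3.0 on Ensembl 91. Of the deposited values 7.84% were not whole, and all were rounded. The 92 spike-in rows that name no gene (at most 0.000549% of a library) were left out, and every column was mapped to a tumor. Depth was 26603449 to 39948866 counts per tumor, but Ifng had only 12 to 71 counts in the IgG tumors, where counting error adds to the spread. No 2 libraries agreed within sampling noise (of 120 pairs, the closest had a chi-square of 16.5 per degree of freedom).

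Genes were filtered with filterByExpr, scaled with TMM and fitted with edgeR 4.0.16 (robust quasi-likelihood, R 4.3.3) over 3 groups, or over 2 groups for all aPD-1 tumors against IgG, with Benjamini-Hochberg adjustment over all 18251 genes tested. SEs were taken from the same fit. CPM used TMM-scaled library sizes. Positions and exon lengths came from GENCODE M21, and promoters from RefSeq on GRCm38.p6. Within-group likeness used log2 CPM with a prior count of 2. Correlations with Ifng used exact permutation tests (scipy 1.17.1).

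The members and lists were chosen with earlier results of these data known. Named were the members, the 2 related GTPases of smallest p past the threshold in each family and direction, the 3 signalling and 3 partner genes of smallest p in each comparison, Ifng and Irf1, and the 5 genes most like the members. Any other related GTPase was named after its values were seen. Gvin2, Gvin3 and Gm17757 were not analysed here. One signalling gene is not reported here. Alternatives were DESeq2 1.42.0, median-of-ratios scaling, other filters, another prior count, leaving out each tumor, and, chosen after seeing the data, leaving out the 3 tumors of high mitochondrial share. The scripts were tested on simulated data.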

Additional observations from a re-analysis of the deposited data

Results flagged for a closer look

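Dixon's criterion at the 95% level sets a tumor apart by chance in about 1 of 20 groups. These genes were read in the same tumors and many vary together, so that rate gives no expected count here. Of the 70 gene and group combinations examined, 13 held a tumor set apart from the rest of its group by this criterion. Among the members in the IgG group these were Gbp2 at 667 CPM and Tgtp2 at 203 CPM in replicate 8, and Gbp7 at 367 CPM and Gm4841 at 33.1 CPM in replicate 1. Among the related GTPases, IgG replicate 8 was set apart as the highest for Gbp2b (6.56 CPM), Gm5431 (8.70 CPM), Gvin1 (169 CPM) and Gm8995 (68.1 CPM), and IgG replicate 1 for Gbp8 (78.6 CPM) and Gbp11 (6.35 CPM). IgG replicate 1 was also set apart as the lowest for 9930111J21Rik1 (7.90 CPM) and as the highest for Irf1 (476 CPM). In the non-responders replicate 12 was set apart for Gbp2b (12.6 CPM). In all, 12 of the 13 thus fell on IgG replicates 1 and 8.

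The spike-in rows, which no comparison used, held counts in 4 tumors, up to 185 in IgG replicate 4, more than the limit of 3 counts that a library at 0 allows.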

How the results depend on the processing

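No paired analysis was possible because the labels give the 3 groups no shared replicate numbers. Of the counts recomputed under an alternative, 207 stayed within 1.5 times the reported count and 24 did not. Of the recomputed values of genes other than members, 40 no longer passed the threshold, 7 newly passed it, 2 turned sign, and the rest kept direction and side. Of the members' fold changes, given without a p-value, 6 moved by more than 1 SD between tumors. Of these fold changes 25 turned sign, all of 7 members in responders against non-responders. Members called in responders against IgG numbered 2, and 1 with DESeq2, with median-of-ratios scaling or without the low-count filter, and 0 to 3 leaving out 1 tumor at a time. Leaving out 1 tumor gave 0 to 1 member called in non-responders against IgG. For related GTPases it gave 4 to 11 called in responders against IgG and 2 to 4 against non-responders, and for signalling genes 2 to 6 and 1 to 3. Without the 3 tumors of high mitochondrial share 7 signalling genes were called in responders against IgG. In all aPD-1 tumors against IgG, DESeq2 called 2 related GTPases and 2 signalling genes, where edgeR called 0. Members related to Ifng at an adjusted p below 0.05 by the exact test numbered 0 to 1 in IgG tumors and 0 to 7 in non-responders when 1 tumor was left out. The log2 fold change of Ifng in responders against non-responders ran from -0.049 without responder 16 to 1.81 without responder 15, and that of Irf1 in responders against IgG from -0.15 to 0.31 in the same order. The cause of these changes was not tested. With 2 responders, each value against them rests on 1 tumor once the other is left out, which is then assumed to vary like the other groups.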
